A study of Homo sapiens with 4 samples.

Results

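The genes described here make, cut or bind hyaluronan in PC3 and DU145 cells, which are established androgen-insensitive prostate cancer cell lines. They are the 8 genes CEMIP, CEMIP2 (formerly TMEM2), HAS2, HAS3, HYAL1, HYAL2, HYAL3 and CD44, taken from 25122 genes with a symbol on the array and covered by 13 probes. They were chosen because CEMIP was higher after ESS2 knockdown in both lines, so every difference between knockdown and control is given as a description, without a test. ESS2 encodes a nuclear protein known as a transcriptional coregulator and as a component of the spliceosome.

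RNA from each of 4 groups was hybridized to a 1-colour (Cy3) Agilent human gene expression array, with 1 array per group. PC3-shC and DU145-shC cells carried an shRNA against luciferase, and PC3-shESS2 and DU145-shESS2 cells carried an shRNA against ESS2. The series description gives lentiviral delivery, whereas the methods describe plasmid transfection and puromycin selection for PC3 cells, and whether the selected cells were 1 clone or a pool is not given in the sources used here. With 1 array in each group there are no replicates, and the differences stand without p-values. Values are array signals from whole cultures, in which fewer expressing cells and less RNA per cell cannot be told apart. The ESS2 probe, which checks the labels, had a signal of 133 in PC3-shC and 53.6 in PC3-shESS2 cells, and of 85.7 in DU145-shC and 17.3 in DU145-shESS2 cells. After scaling, ESS2 was 2.74-fold lower in PC3-shESS2 and 5.09-fold lower in DU145-shESS2 cells than in the matching control, log2 ratios of −1.45 and −2.35. With normexp background correction, which adds an offset of 50 to every signal, these were −0.90, short of 2-fold, and −1.13.

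The arrays of a line shared a slide and a scan, and the lines were on different slides, so slide and line cannot be told apart. Between 50.8 and 52.6% of the spots were well above background, the scanner software's mark for a measured signal, and no non-control spot was saturated. The lines were checked against their labels: CTNNA1, which PC3 cells have lost, failed to pass the background mark in PC3 cells and passed it on both DU145 arrays. KLK3, the gene of prostate-specific antigen, was not well above background on any array, and the epithelial genes KRT8, KRT18 and EPCAM were on all 4. Of 5 markers of leukocytes, endothelium and fibroblasts, 3 were well above background on each PC3 array and 2 on each DU145 array, with a summed signal of 668 in PC3-shC, 278 in PC3-shESS2, 118 in DU145-shC and 119 in DU145-shESS2 cells. The fibroblast genes COL3A1 and DCN were not well above background on any array, whereas COL1A1 was on all 4, with signals of 265 in PC3-shC, 197 in PC3-shESS2, 84.7 in DU145-shC and 75.4 in DU145-shESS2 cells. PECAM1, an endothelial adhesion gene, moved most, from 338 in PC3-shC to 16.4 in PC3-shESS2 cells, and EPCAM was 6.11-fold lower in DU145-shESS2 than in DU145-shC cells. The other epithelial genes did not share the EPCAM shift: in DU145 cells the log2 ratio was 0.28 for KRT8 and −0.033 for KRT18 on their brightest probes. The dimmer KRT8 probes disagreed, at 0.68 and −0.69. The part of the PECAM1 or EPCAM shift in the results below was not tested.

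Hyaluronan is a long unbranched sugar chain of the extracellular matrix. The HAS enzymes build it at the plasma membrane from UDP-sugars and push it out of the cell. CEMIP and the HYAL enzymes cut it, and CEMIP2 is a related cell surface protein. CD44 is its main surface receptor, and in prostate cancer both hyaluronan and hyaluronidase have been studied in relation to spread of the tumour.

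CEMIP and CEMIP2 gave higher signals after knockdown in both lines on every probe that could be measured, and their promoters are shown for that reason. Both sequences are the 250 bases before the RefSeq start site, on GRCh38.p14, read 5′ to 3′ on the gene's own strand. The CEMIP stretch lies at chr15:80779120-80779369 on the plus strand and that of CEMIP2 at chr9:71768514-71768763 on the minus strand. Capitals mark matches on either strand to the GC box GGGCGG and to the TATA box TATAAA.
CEMIP: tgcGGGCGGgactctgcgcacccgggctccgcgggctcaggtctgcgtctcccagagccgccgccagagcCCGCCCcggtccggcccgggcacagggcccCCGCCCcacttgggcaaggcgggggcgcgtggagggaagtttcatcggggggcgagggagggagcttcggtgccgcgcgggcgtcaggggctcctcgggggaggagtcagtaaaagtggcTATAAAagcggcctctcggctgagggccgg
CEMIP2: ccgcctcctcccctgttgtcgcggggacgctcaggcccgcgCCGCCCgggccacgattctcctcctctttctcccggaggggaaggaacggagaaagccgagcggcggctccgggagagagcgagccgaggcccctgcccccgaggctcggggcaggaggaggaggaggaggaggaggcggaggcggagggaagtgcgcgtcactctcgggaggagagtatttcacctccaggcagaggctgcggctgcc
The CEMIP stretch held 3 GC boxes, against 1 in that of CEMIP2, and a TATA box that begins 30 bases before the start. Of 35116 promoters of the same length, 42.6% held a GC box and 10.7% a TATA box on either strand. The search also covered the AP-1 letters TGANTCA, the E-box CACGTG and the NF-κB consensus on both strands, which 6.57, 6.34 and 9.96% of all promoters held, and neither stretch had a match. A match is a description of the letters only. Of the other members with an entry, GC boxes were found before the starts of HAS3, HYAL1, HYAL3 and CD44 and not before that of HYAL2. HAS3 had an E-box match, and 1 of the 2 HYAL3 promoters had a match to the NF-κB consensus.

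As processed here, CEMIP had the largest ratio of the 8 genes in size, although HAS2 in PC3 cells was larger with normexp correction (−1.70, against 1.19 and 1.46 for CEMIP) and with the probes of a gene averaged (−2.04, against 1.30 and 1.10). The signal of its brighter probe (A_23_P324754) was 23.8 in PC3-shC, 173 in PC3-shESS2, 50.5 in DU145-shC and 262 in DU145-shESS2 cells. Each knockdown array was above both control arrays, so the groups with and without ESS2 shRNA did not overlap, as was the case after scaling for 5.08% of the genes compared in both lines. CEMIP was chosen for being higher in both, so nothing is read from this. The order of the signals was PC3-shC, DU145-shC, PC3-shESS2 and DU145-shESS2. After scaling to the 75th percentile of each array, the log2 ratio (shESS2 over shC) was 2.72 in PC3 cells, a 6.59-fold higher level, and 2.33 in DU145 cells, a 5.05-fold higher level. For probes with a signal under 100 on the dimmer array, the log2 ratio between single spots had a median SD of 0.15 in PC3 and 0.25 in DU145 cells, over 9 probes spotted 10 times. That spread covers neither the hybridization nor the cultures. The control signals were near the lower end of the measured range, where the background correction and any offset matter. With normexp correction and its offset of 50, the log2 ratio was 1.19 in PC3 and 1.46 in DU145 cells.

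The second CEMIP probe (A_24_P84396), assigned to the same RefSeq transcript, was not well above background on any array. Its signal was 1.76 in PC3-shC, 1.79 in PC3-shESS2, 1.78 in DU145-shC and 7.72 in DU145-shESS2 cells, against a lowest measured signal of 8.15 to 9.02. No fold is given for it, and the change of CEMIP therefore rests on 1 probe. With both probes averaged, the log2 ratio was 1.30 in PC3 and 1.10 in DU145 cells.

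**Figure D1:**
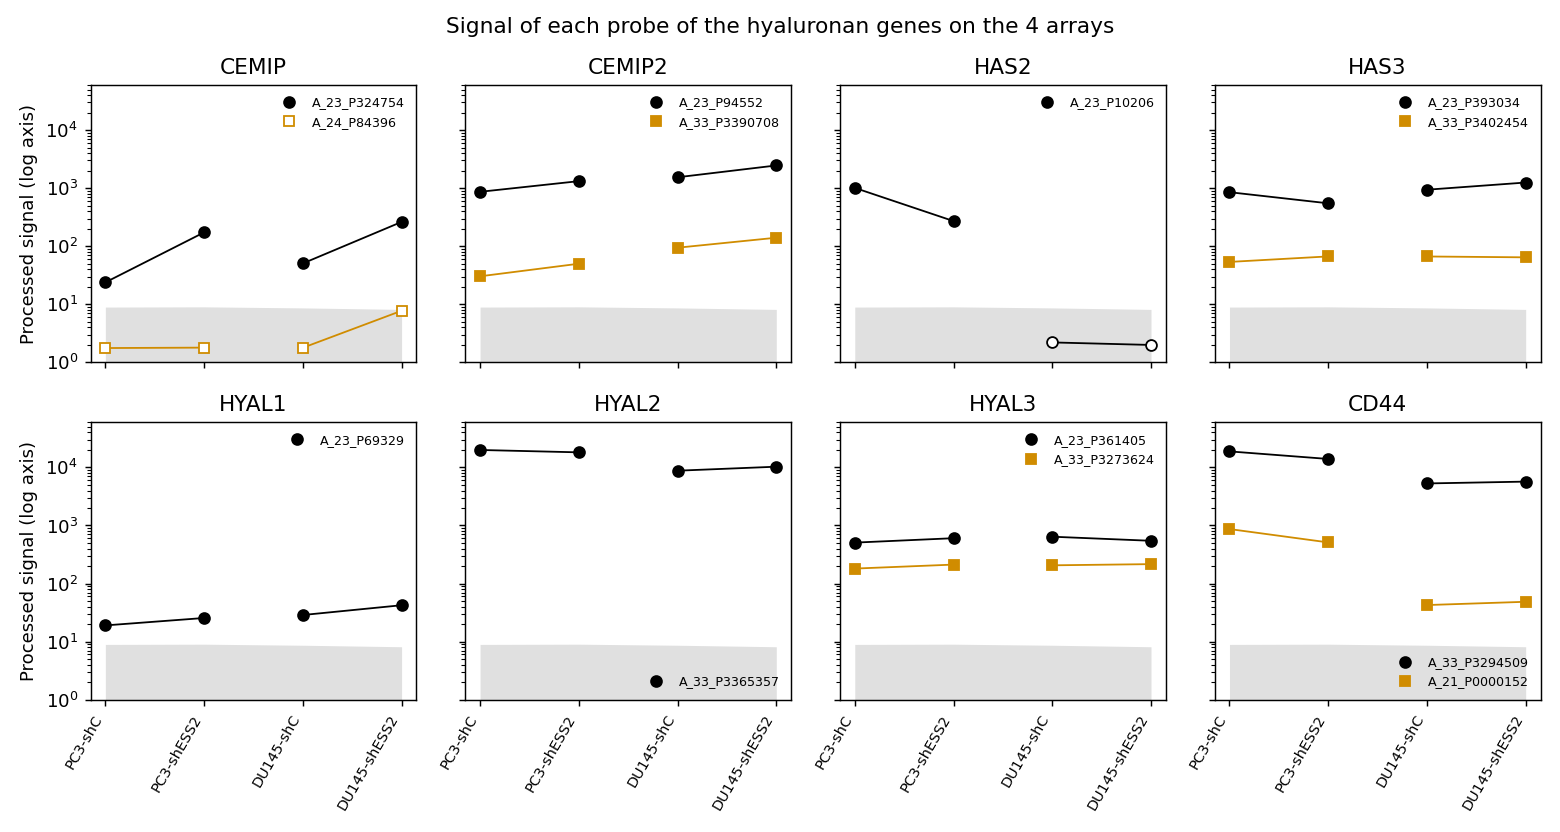
Processed signal (log axis) of each probe of the 8 hyaluronan genes on the 4 arrays, 1 array per group; black circles are the brighter probe of a gene, orange squares its other probe, open symbols are not well above background, and the grey band lies under the lowest measured signal. The brighter CEMIP probe reads 23.8 and 50.5 in the control cells and 173 and 262 after ESS2 knockdown, whereas HAS2 falls within the grey band on both DU145 arrays.

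Set against all genes, the ratio of CEMIP ranked 50 from the highest of 16764 genes compared in PC3 cells and 35 from the highest of 16842 in DU145 cells. Of 15478 genes compared in both lines, 1 had a higher ratio than CEMIP in both. These ranks describe a gene chosen for this pattern.

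CEMIP2 was higher in both lines by less than 2-fold. Its brighter probe had a signal of 865 in PC3-shC, 1320 in PC3-shESS2, 1540 in DU145-shC and 2460 in DU145-shESS2 cells. The log2 ratio was 0.47 in PC3 and 0.64 in DU145 cells, where the SD between spots was 0.088 and 0.073 at this brightness. The second probe read 30.3, 49.9, 94.2 and 140 on the same arrays, with log2 ratios of 0.58 and 0.53. Both probes therefore gave the same direction and similar sizes in each line. Unlike CEMIP, CEMIP2 overlapped between conditions, as the PC3-shESS2 signal was below that of DU145-shC cells.

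Of the enzymes that make hyaluronan, HAS2 was lower after knockdown in PC3 cells and was not measured in DU145 cells. Its only probe had a signal of 1010 in PC3-shC and 271 in PC3-shESS2 cells, a log2 ratio of −2.04 and a 4.11-fold lower level, where the SD between spots was 0.088. In DU145-shC and DU145-shESS2 cells the signals were 2.20 and 1.99, not well above background, and no fold is given. HAS2 ranked 156 from the lowest of the genes compared in PC3 cells. The PC3-shC signal was at least 94.1-fold higher than that of DU145-shC cells, and PC3-shESS2 cells were still at least 25.0-fold above DU145-shESS2 cells.

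HAS3, the other synthase on the list, had opposite directions in the 2 lines on its brighter probe. This probe read 852 in PC3-shC, 548 in PC3-shESS2, 940 in DU145-shC and 1250 in DU145-shESS2 cells. The log2 ratio was −0.78 in PC3 cells and 0.37 in DU145 cells, both past the SD of 0.088 between spots. The second HAS3 probe, assigned to another transcript, turned the other way in each line: its signals of 53.6, 66.7, 66.5 and 64.3 gave log2 ratios of 0.17 and −0.089, against SDs between spots of 0.15 and 0.25. The probes of HAS3 therefore disagreed, and a direction for the gene rests on the choice of probe. HAS1, the remaining synthase, had signals of 8.72 to 9.95 on its brightest probe and was near the lowest measured signal on all arrays.

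**Figure D2:**
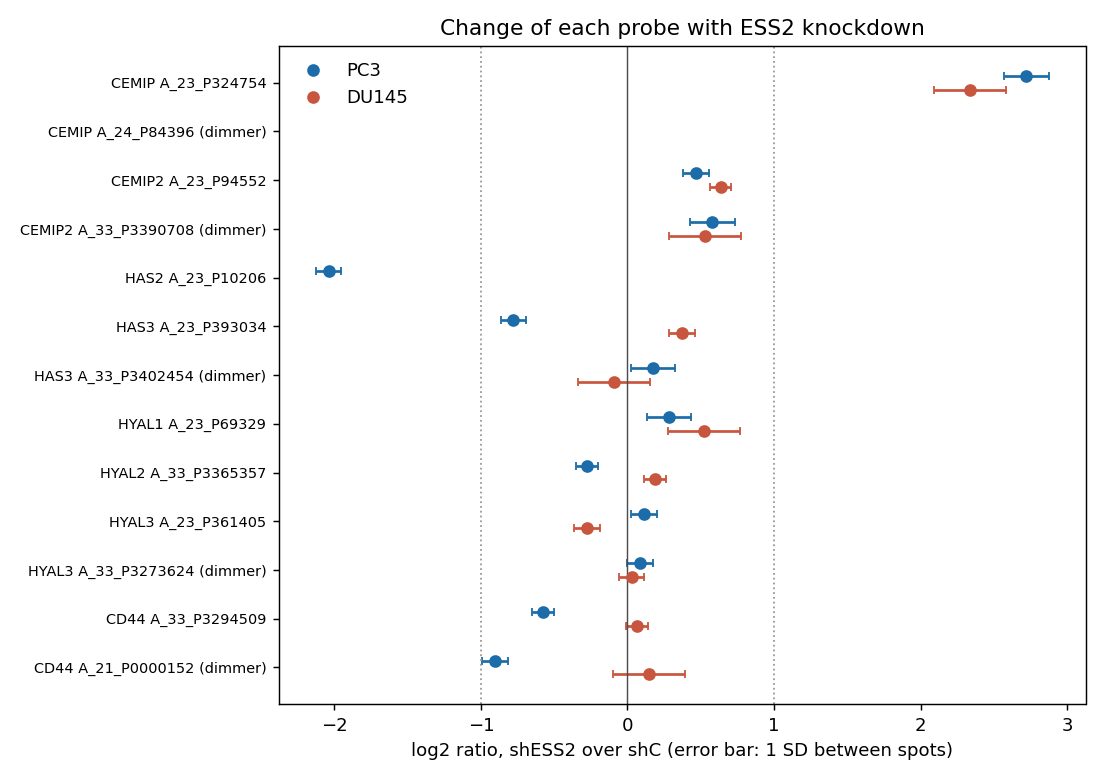
The log2 ratio (shESS2 over shC) of each probe in PC3 (blue) and DU145 cells (red), with 1 SD between spots of probes of like brightness as the error bar and dotted lines at a 2-fold difference. CEMIP lies past 2-fold in both lines (2.72 and 2.33) and HAS2 in PC3 cells (−2.04), and all other measured probes lie between −0.91 and 0.64.

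The 3 HYAL genes differed little between knockdown and control. They lie next to each other on chromosome 3, where HYAL3 overlaps NAA80. HYAL1, a lysosomal hyaluronidase, had signals of 19.0 in PC3-shC, 25.5 in PC3-shESS2, 28.7 in DU145-shC and 42.3 in DU145-shESS2 cells. Its log2 ratio was 0.28 in PC3 and 0.52 in DU145 cells, against an SD between spots of 0.15 and 0.25 for probes this dim, and with normexp correction the PC3 ratio was −0.0046. HYAL2, which is anchored to the cell surface, was bright throughout, with signals of 20000 in PC3-shC, 18200 in PC3-shESS2, 8790 in DU145-shC and 10300 in DU145-shESS2 cells. Its log2 ratio was −0.28 in PC3 and 0.19 in DU145 cells, opposite in direction, small, and past the SD of 0.075 and 0.073 between spots. HYAL3 had signals of 507, 604, 641 and 545 on its brighter probe, and log2 ratios of 0.11 in PC3 and −0.27 in DU145 cells. Its second probe gave 0.087 in PC3 and 0.028 in DU145 cells, so that the probes differed in direction in DU145 cells.

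CD44 was lower after knockdown in PC3 cells on both probes. The brighter probe read 18900 in PC3-shC, 14000 in PC3-shESS2, 5300 in DU145-shC and 5700 in DU145-shESS2 cells, with a log2 ratio of −0.57 in PC3 and 0.065 in DU145 cells. The other probe, assigned to a different CD44 transcript, read 868, 511, 42.6 and 48.5, with log2 ratios of −0.91 and 0.15. In PC3 cells both ratios exceeded the spread between spots (SD 0.075 and 0.088), and neither reached 2-fold. In DU145 cells both were within it (SD 0.073 and 0.25). The probes also differed in how far apart the lines were: PC3-shC was 2.87-fold above DU145-shC cells on the brighter probe and 16.4-fold on the other. ESRP1 and ESRP2, which regulate CD44 splicing and were picked out after their values were seen, were 27.0-fold and 5.51-fold higher in PC3-shC than in DU145-shC cells, and were within 2-fold between knockdown and control in each line (log2 ratios of 0.19 and 0.086 in PC3, and −0.31 and −0.76 in DU145 cells). The ESRP1 signals were 13.4 in DU145-shC and 11.1 in DU145-shESS2 cells, near the lowest measured signals of 8.65 and 8.15. With normexp correction its DU145 ratio was −0.042. The part of ESRP1 or ESRP2 in the CD44 probes was not tested.

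Counted by the brighter probe of each gene, 2 of 8 members differed by more than 2-fold in PC3 cells, where 7.75% of all genes compared did. Of these, CEMIP was higher, as were 3.88% of all genes, and HAS2 lower, as were 3.87%. In DU145 cells 1 of 7 members passed 2-fold, against 4.83% of all genes. It was CEMIP, which was higher, as were 2.36% of all genes, and no member was lower, as were 2.47%. Higher levels past 2-fold in both lines were found in 1 member and in 0.265% of the genes compared in both, and 0.252% of those genes were lower in both. By any amount, 3 of the 7 members (CEMIP, CEMIP2 and HYAL1) were higher in both lines, or 2 with normexp correction, where HYAL1 in PC3 cells was at −0.0046, and 23.7% of those genes were. As the members were chosen from these contrasts, nothing is read from the shares. The PC3 calls over all genes were divided into 650 higher and 649 lower, which scaling to the medians changed to 511 and 803 and the authors' scaled values to 792 and 535. The median log2 ratio of the members was −0.083 in PC3 and 0.37 in DU145 cells, beside −0.055 and −0.022 over all genes.

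**Figure D3:**
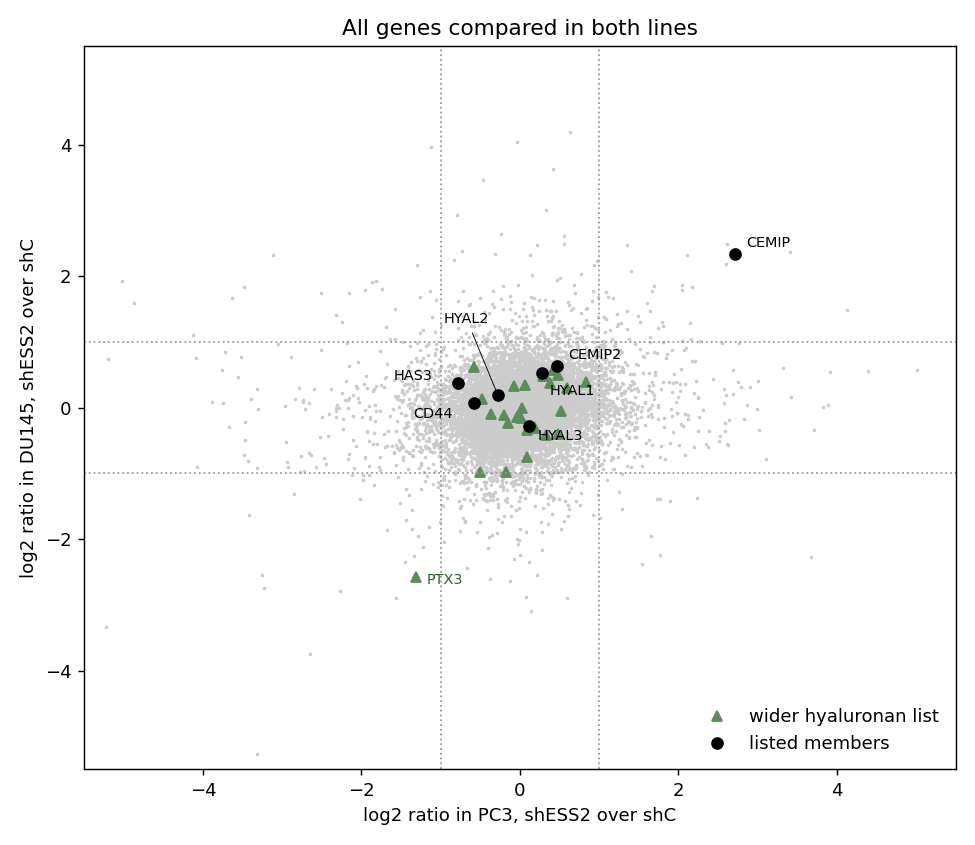
The log2 ratio (shESS2 over shC) in PC3 (x axis) and DU145 cells (y axis) of the 15478 genes compared in both lines (grey), the members (black circles) and the wider hyaluronan list (green triangles), with dotted lines at 2-fold and 7 genes outside the axes. CEMIP stands at 2.72 and 2.33, the other members lie near the centre, and PTX3 lies past 2-fold downwards in both lines; HAS2 is not drawn, as it was not measured in DU145 cells.

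Between the control cells of the lines, the members were spread in both directions. PC3-shC cells had more HAS2 (at least 94.1-fold) and CD44 (2.87-fold), and DU145-shC cells had more CEMIP (2.63-fold) and CEMIP2 (2.21-fold on the brighter and 3.86-fold on the dimmer probe). HYAL1 was 1.87-fold and HAS3 1.37-fold higher in DU145-shC cells, and HYAL2 was 1.83-fold higher in PC3-shC cells. In all, 4 of 8 members differed by more than 2-fold between the control arrays, and so did 42% of all genes compared, where 22.1% were higher in PC3-shC and 19.9% in DU145-shC cells. With ESS2 knockdown, CEMIP was 2.01-fold higher in DU145-shESS2 than in PC3-shESS2 cells. All folds between the lines are for scaling to the 75th percentile, a signal of 263 in PC3-shC and 212 in DU145-shC cells. The authors' constants of 3.645 and 6.17 would raise DU145-shC further against PC3-shC cells. No other scaling was run on these folds, so folds near 2 and the counts hold for this scaling only.

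A wider list of 46 genes that supply, bind or break down hyaluronan, or act with CD44, was counted in the same way. In PC3 cells 30 could be compared, of which 0 were higher and 2 lower by more than 2-fold, where 7.75% of all genes passed in either direction, and the median log2 ratio was 0.072. In DU145 cells 28 could be compared, of which 0 were higher and 1 lower, where 4.83% of all genes passed, and the median was −0.080. Both genes that passed in PC3 cells were listed as matrix binding, as were 15 of the 46 genes listed and 6 of the 30 compared. Their count was near the share over all genes, so nothing is read from the role. PTX3, a pentraxin, had a signal of 6877 in PC3-shC, 3054 in PC3-shESS2, 60.4 in DU145-shC and 10.4 in DU145-shESS2 cells, with log2 ratios of −1.31 and −2.57. TNFAIP6, which transfers heavy chains onto hyaluronan, had signals of 44.6 and 15.2 on the PC3 arrays and a log2 ratio of −1.69, and was not well above background in DU145 cells. With normexp correction TNFAIP6 (−0.60) and, in DU145 cells, PTX3 (−0.80) fell short of 2-fold.

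The 8 genes that supply UDP-sugars to the synthases were measured in both lines. None passed 2-fold, a count that does not set so short a list apart from the 7.75 and 4.83% of all genes. Their log2 ratios ran from −0.58 to 0.84 in PC3 and from −0.42 to 0.62 in DU145 cells, with medians of 0.17 and 0.36. Of the other receptors, HMMR, an intracellular and surface hyaluronan-binding protein of the mitotic spindle, had signals of 5260 and 5130 on the PC3 arrays and 3340 and 1740 on the DU145 arrays. Its log2 ratio was −0.18 in PC3 and −0.98 in DU145 cells, the latter just short of 2-fold. LYVE1, the lymphatic receptor, and SPAM1, the sperm hyaluronidase, were not well above background on any array. HYAL4 had probes that disagreed in PC3 cells, with log2 ratios of −0.37 on the brighter probe (signals 2600 and 2220) and 2.08 on the other (signals 14.1 and 65.6).

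EZR, RDX and MSN, which link CD44 to the actin cortex, were higher in PC3-shESS2 cells by less than 2-fold on their brighter probes, with log2 ratios of 0.53, 0.37 and 0.31. In DU145 cells the ratios were −0.057, 0.37 and 0.48. The second probe of RDX had a log2 ratio of 1.24 in PC3 and 0.67 in DU145 cells. Together with ADAM10, ADAM17 and MMP14, proteases that cut CD44, 6 of 6 genes compared were higher by any amount in PC3-shESS2 cells, as were 44.3% of all genes, and 4 of 6 in DU145-shESS2 cells, as were 47.2%. The 3 proteases were picked out after their values were seen. The PC3 ratio of ADAM17 was 0.026, and −0.077 with median scaling, so that 5 of 6 were then higher. In DU145 cells the ratio of ADAM17 was −0.013 and that of EZR −0.057, and each changed sign under an alternative.

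The profile of CEMIP over the 4 arrays was set against those of all 14686 genes well above background on every array, as the root mean square difference of log2 values centred on each gene's own mean. The nearest were PAG1 (0.35), an adaptor protein of membrane rafts, CLIC3 (0.51), an intracellular chloride channel protein, TP53INP1 (0.58), a stress-induced p53 target, TULP3 (0.60), a ciliary trafficking protein, and TP53INP2 (0.68), an autophagy protein. PAG1 had signals of 71.2 in PC3-shC, 324 in PC3-shESS2, 114 in DU145-shC and 405 in DU145-shESS2 cells, log2 ratios of 2.05 and 1.79. The other 4 had log2 ratios between 1.36 and 2.16 in PC3 and between 1.04 and 1.77 in DU145 cells, all smaller than those of CEMIP. Of the members, CEMIP2 was nearest, at a distance of 0.998 and rank 163, and CD44 farthest of those measured on all arrays, at 1.86 and rank 12517. The distance over 4 arrays is a description.

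**Figure D4:**
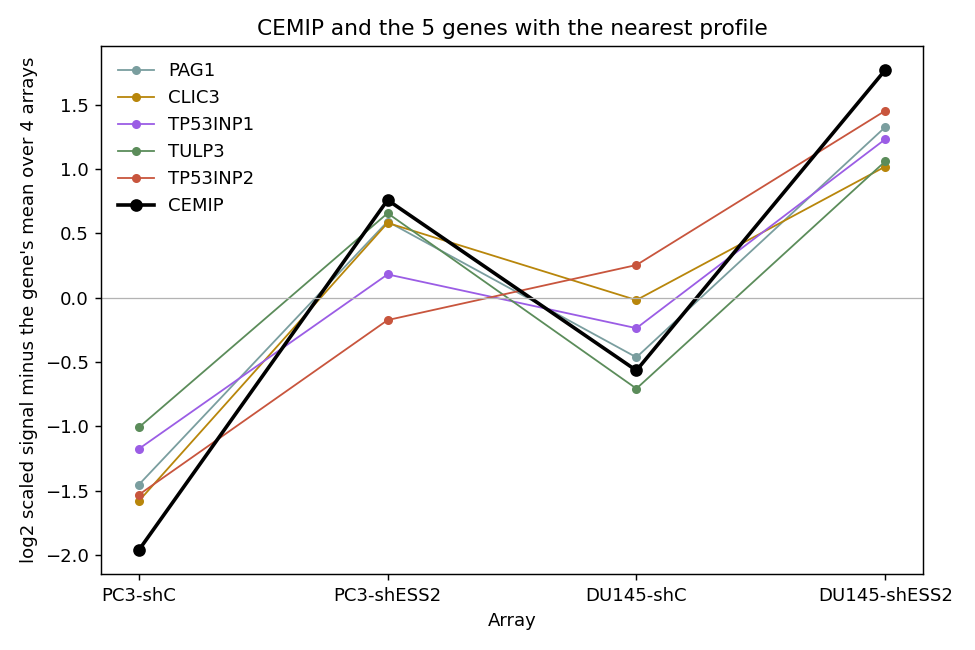
Scaled log2 signal, centred on each gene's mean over the 4 arrays, of CEMIP (black) and the 5 genes with the nearest profile, with 1 array per group on the x axis. All 6 profiles are lowest in PC3-shC cells and highest in DU145-shESS2 cells, and CEMIP has the widest range.

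**Figure D5:**
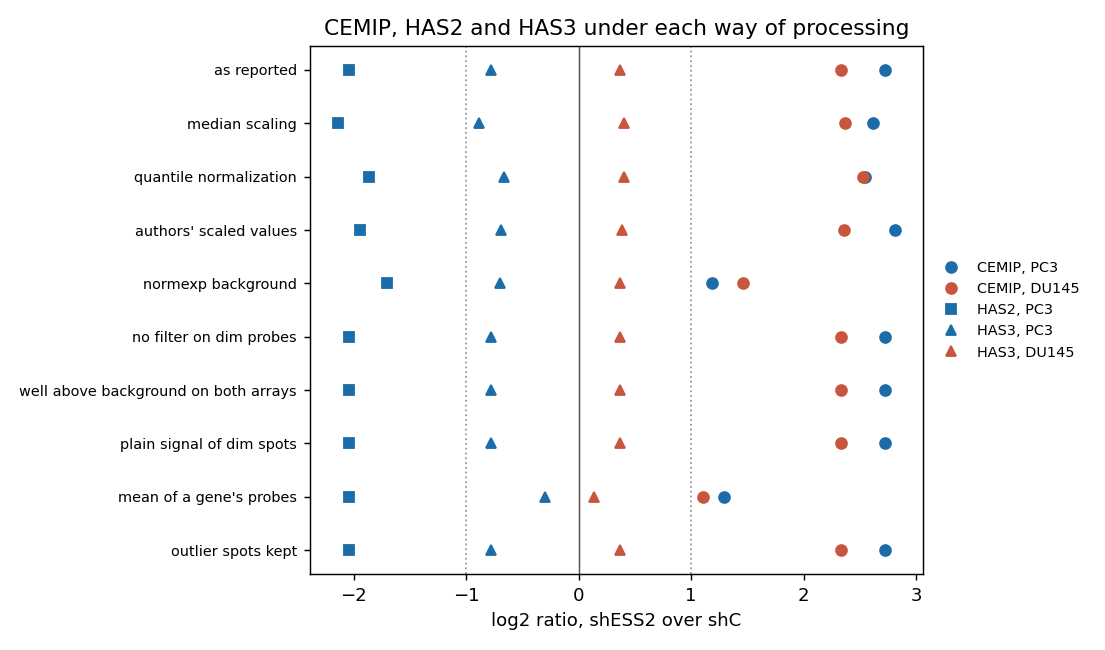
The log2 ratio (shESS2 over shC, x axis) of CEMIP (circles), HAS2 (squares) and HAS3 (triangles) in PC3 (blue) and DU145 cells (red) as reported and under 9 other ways of processing, with dotted lines at 2-fold. The CEMIP ratio stays past 2-fold in each but is lowest with normexp correction in PC3 (1.19) and with the probes averaged in DU145 cells (1.10). The settings that act only on dim or outlier spots leave it unchanged.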

How the data were processed

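RNA from PC3-shC, PC3-shESS2, DU145-shC and DU145-shESS2 cells was measured on 4 one-colour Agilent arrays. The authors deposited Feature Extraction output, whose processed intensity is background-subtracted and detrended but not scaled between arrays, and a table of scaled intensity values, each column of which equals the processed signal times 1 constant (within 1% for all spots). The log2 signal was centred on the 75th percentile of its array, as the methods name GeneSpring without settings. Control spots and outlier spots were left out, which removed 5 of 58201 probes, and spots of 1 probe were averaged. Probe accessions were matched to RefSeq symbols (GRCh38.p14), for 35080 probes. A gene was represented by its brightest probe. It was compared where well above background on either array of a line, and a dim value was raised to the lowest signal well above background on its array, which makes the fold a lower bound. Genes were counted past 2-fold.

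The spread between spots was the SD of the log2 ratio over 10 spots of the same probe, for the 286 of 300 such probes measured in all spots in PC3 and 283 in DU145 cells. The number of arrays limits the precision. The gene list, the wider list and the naming rule (all members, ESS2, listed genes past 2-fold, 8 fixed genes of the wider list and the 5 profiles nearest to CEMIP) were chosen with earlier results of these data known. Promoter sequences are from RefSeq (GRCh38.p14), which gave 8 promoters for 7 members. The alternatives were median scaling, quantile normalization, the authors' scaled values, normexp with an offset of 50 (on the median spot signal, as the mean was not used here), no filter on dim probes, a filter on both arrays, dim spots at their plain signals, averaging all probes of a gene and outlier spots kept. The steps were tested on simulated data. The software was R 4.3.3 with limma 3.58.1 and Python 3.11.15 with numpy 2.4.6, pandas 2.3.3 and matplotlib 3.10.9.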

Additional observations from a re-analysis of the deposited data

Results flagged for a closer look

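HAS3 had opposite directions in the lines on its brighter probe, with a log2 ratio (shESS2 over shC) of −0.78 in PC3 and 0.37 in DU145 cells. HYAL2 did so too, at −0.28 in PC3 and 0.19 in DU145 cells. Each line has 1 array per condition, so these differences between the lines were not tested.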

How the results depend on the processing

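The log2 ratio of CEMIP stayed above 1 in both lines under all 9 alternatives. It could not move under the changed filters, plain dim signals or kept outlier spots, and stayed at 2.72 in PC3 and 2.33 in DU145 cells. In PC3 cells it was 2.55 with quantile normalization, 1.19 with normexp correction and 1.30 with the probes of the gene averaged, and in DU145 cells it was 1.46 with normexp correction and 1.10 with the probes averaged, where the second, dim probe enters at the lowest measured signal. The normexp setting adds an offset of 50 to every signal, against CEMIP control signals of 23.8 in PC3-shC and 50.5 in DU145-shC cells. The part of this offset in the smaller normexp values was not tested. The counts of members past 2-fold were the same under all alternatives. The wider list had 1 gene past 2-fold in PC3 and 0 in DU145 cells with normexp correction, and 4 and 5 with no filter on dim probes, which adds genes that were not measured. Of 117 ratios of the other members under alternatives, 94 moved by less than 1 SD between spots, 23 moved further and 1 changed sign, that of HYAL1 in PC3 cells with normexp correction (−0.0046). The 94 include ratios that could not move. The changed filters, plain dim signals and kept outlier spots left every ratio as it was, and averaging cannot move a gene with 1 probe. HAS2 in PC3 cells lay between −2.14 and −1.70. Over all genes, 1299 differed by more than 2-fold in PC3 and 813 in DU145 cells. These counts were 571 and 216 with normexp correction and 2624 and 2020 with no filter on dim probes. Median scaling moved the median of all PC3 ratios by −0.10, against which the smaller ratios, such as HYAL3 in PC3 cells (0.11, and 0.0086 with median scaling), cannot be given a firm direction. The labels carry no replicate numbers. Knockdown and control are paired by cell line, and a fit over both lines with the line as a block was not run, as CEMIP was chosen for its ratios in both. Signals near background, as those of CEMIP and HYAL1 in control cells, limit how well a ratio is known.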

Other observations

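HEXA, which encodes the α subunit of the lysosomal β-hexosaminidase that trims hyaluronan fragments, was singled out after its values were seen. Its only probe had a signal of 2.27 in PC3-shC and 2.33 in PC3-shESS2 cells, not well above background, and of 1340 in DU145-shC and 1720 in DU145-shESS2 cells, so that DU145-shC was at least 186-fold above PC3-shC cells.

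GFPT2, also singled out after its values were seen, is an enzyme of the first step of UDP-N-acetylglucosamine synthesis. Its signals of 844 in PC3-shC, 621 in PC3-shESS2, 841 in DU145-shC and 1330 in DU145-shESS2 cells gave log2 ratios of −0.58 and 0.62. Its paralog GFPT1 was higher after knockdown in both lines, with log2 ratios of 0.84 and 0.38 on the brighter probe and 0.69 and 0.78 on the other. TLR2, a receptor that also answers to hyaluronan fragments, was likewise singled out after its values were seen. It was lower in both lines by less than 2-fold, with log2 ratios of −0.50 in PC3 and −0.98 in DU145 cells. Its signals were dim in DU145-shC (29.9) and DU145-shESS2 cells (15.6), and the DU145 ratio was −0.29 with normexp correction.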
